A study of Homo sapiens with 6 samples.

Results

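Costimulatory and activation surface molecules are the proteins through which a B cell engages T cells, natural killer cells and macrophages. The 9 genes described here are CD58, CD80, CD86, CD83, CD69, CD70, CD48, CD47 and TNFRSF14, taken by symbol. All 9 were present among the 18278 genes of the deposited table, and all 9 passed the filter on low values (average normalized read count of 10 or more), which left 16048 genes for testing. A normalized read count is a gene's read count divided by 1 scaling factor per library. The cells are Toledo, an established human line from a diffuse large B cell lymphoma, grown in suspension. The study asks about CARM1, an enzyme that methylates arginines of histones and coactivators, as a target in lymphoma cells with altered CREBBP or EP300. One group of 3 samples received TP-064, an inhibitor of CARM1, at 5 uM, and the other group of 3 received the solvent DMSO, each for 6 days before polyadenylated RNA was sequenced. The comparison thus rests on 1 cell line, 1 dose and 1 time.

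A B cell that has met antigen can instruct a T cell only if it shows a second signal beside its MHC molecules. CD80 and CD86 give that signal to CD28, and CD70 gives a related one to CD27. CD58 and CD48 hold the contact together by binding receptors of the CD2 family. CD69 and CD83 mark recent activation, TNFRSF14 engages the inhibitory receptor BTLA, and CD47 restrains phagocytosis by macrophages. In diffuse large B cell lymphoma, loss of CD58 is a recurrent lesion, and TNFRSF14 and CD70 are also recurrently mutated in lymphomas of germinal centre B cells.

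The libraries held 41354131 to 48360867 recovered reads over the listed genes. TP-064 replicate 3 lay apart from the other libraries on the second principal component, at -35.2 against -6.37 to 21.3, and had more reads on genes antisense to abundant transcripts. The median antisense gene held 0.699% of its partner's reads there and 0.0764% to 0.115% in the other 5 libraries. All 9 B cell markers were listed, with summed levels of 204552 to 209587 normalized read counts in DMSO and 216338 to 233347 in TP-064 samples. Of 11 T cell markers 4 were listed, at 2616 to 2752 in DMSO and 1298 to 1505 in TP-064 samples. That sum is mostly TRBC2, which fell to 1249 from 2606, while CD247 fell to 12.1 from 35.9, TRAC rose to 86.8 from 33.8 and CD4 rose to 22.3 from 5.19 (means of 3 samples). CD3D, CD3E, CD3G, CD8A and CD28 were not among the listed genes. Of 7 natural killer cell markers 2 were listed, at 297 to 375 in DMSO and 576 to 647 in TP-064 samples, with PRF1 higher and KLRD1 not called. Of 10 myeloid markers 4 were listed, at 93.0 to 141 and 233 to 250, with CSF1R and CD1C higher, CD14 lower and LYZ not called. Of 7 epithelial and stromal markers 3 were listed, at 315 to 349 and 402 to 453, a sum in which PECAM1 rose to 272 from 32.8, COL1A1 fell to 136 from 287 and KRT8 was not called. The part of these differences in the results was not tested. In a bulk sample, fewer cells carrying a transcript and less of it per cell cannot be told apart. The labels do not say whether replicates were separate cultures, so p-values measure the spread between these samples only.

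Setting TP-064 beside DMSO asks how each surface molecule's transcript stood after 6 days with the inhibitor. CD58 rose about 4-fold, by far the largest difference among the 9. CD80, TNFRSF14 and CD47 rose by smaller amounts. CD83, CD70, CD69 and CD48 fell, and CD86 was barely expressed and was not called. Thus 4 genes were called higher, 4 lower and 1 neither. A call is a Benjamini-Hochberg adjusted p under 0.05 in limma, two-sided, over all tested genes. Across all genes 65.1% were called, 31.9% higher and 33.3% lower, so most genes moved, and a call by itself sets none of the 9 apart. The same 8 genes had TP-064 and DMSO values that did not overlap, 4 higher and 4 lower, against 69.1% of all tested genes (33.9% higher and 35.2% lower). CD58 was the only one of the 9 to change at least 2-fold, against 13.1% of all tested genes (6.51% higher and 6.56% lower). Since rises and falls were equal in number, the median log2 fold change of 0.25 (0.01 over all tested genes) is that of 1 gene, CD47, and was 0.026 without DMSO replicate 1. The median absolute log2 fold change was 0.59 for the 9 genes and 0.35 for all tested genes.

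**Figure D1:**
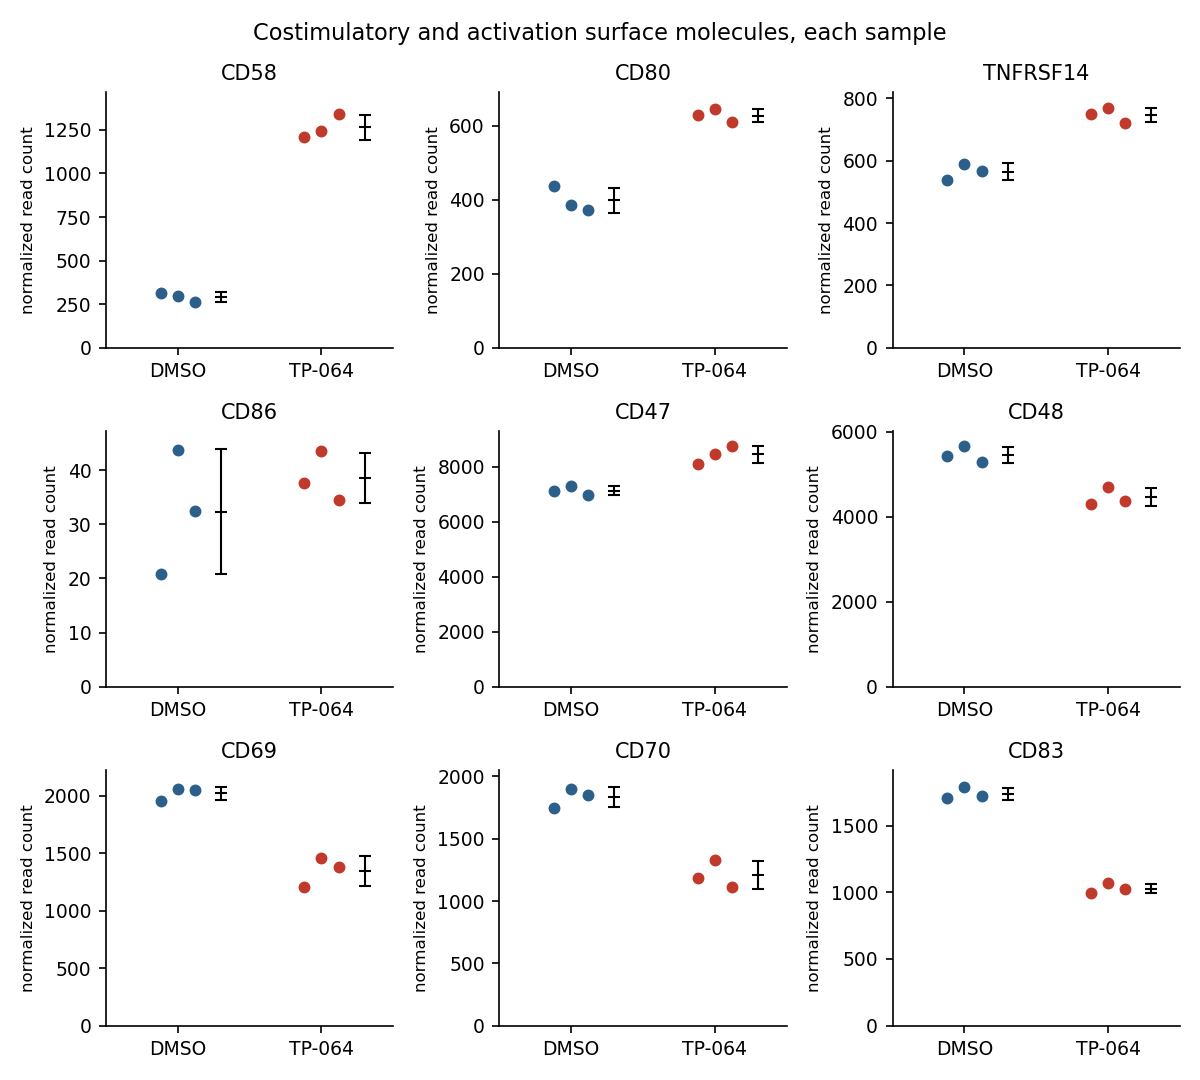
Normalized read counts of the 9 genes in each sample, 1 panel per gene with the y axis from 0; points are the 3 DMSO (blue) and 3 TP-064 (red) samples, and bars give the mean and SD. The TP-064 points lie wholly above the DMSO points for CD58, CD80, TNFRSF14 and CD47, wholly below them for CD48, CD69, CD70 and CD83, and among them for CD86.

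Because CD58 and CD80 had the largest rises, the bases before their transcription start are shown with the matches of a short motif. The sequences come from RefSeq on GRCh38.p14, which gave promoter windows for 7 of the 9 genes. CD69 and CD70 had no entry. Each window of 250 bases before the start was searched on both strands for TGACG, the half-site of the cyclic AMP response element bound by CREB, the factor after which CREBBP is named, and for the NF-kB motif. No window of these genes held both motifs, so no matches overlap. The CD58 stretch lies at chr1:116571040-116571276 on the minus strand and stops where the annotated first exon begins. The CD80 stretch lies at chr3:119559615-119559864 on the minus strand. Capitals mark a motif match.
CD58: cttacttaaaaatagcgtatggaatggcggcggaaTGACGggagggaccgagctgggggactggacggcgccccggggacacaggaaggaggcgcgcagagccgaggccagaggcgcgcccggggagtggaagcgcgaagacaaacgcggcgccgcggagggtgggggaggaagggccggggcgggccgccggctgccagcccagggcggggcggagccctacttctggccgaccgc
CD80: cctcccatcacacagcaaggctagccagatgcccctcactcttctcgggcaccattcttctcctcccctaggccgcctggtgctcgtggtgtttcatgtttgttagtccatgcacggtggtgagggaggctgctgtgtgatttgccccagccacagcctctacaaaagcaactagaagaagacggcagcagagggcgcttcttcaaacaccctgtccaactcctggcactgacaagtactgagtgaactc

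CD58 holds 1 TGACG half-site, starting at position -215 from the RefSeq start, in a window of 72.0% G and C. CD80 holds no match in a window of 56.0% G and C, near the median of 58.0% over all windows. Stretches of 30 bases around matches are shown for 3 other genes that were called, CD83 at chr6:14117686-14117715 (plus strand), TNFRSF14 at chr1:2556277-2556306 (plus strand) and CD47 at chr3:108091128-108091157 (minus strand). All 3 lie inside the GENCODE bounds of their gene, since the RefSeq start used is further in. Capitals mark the NF-kB motif in CD83 and TNFRSF14 and the half-site, read on the other strand, in CD47.
CD83: gctgcccgccGGGGAATCCCCCgggctggc
TNFRSF14: tggactttggGGGGCTCCCCcttctacagg
CD47: gggagggcgccgCGTCAacagcagcggttg

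The half-site was found in 3 of the 9 windows of these genes (CD58, CD47 and the first of the pair of windows of CD86) and in 21.2% of 35116 windows of all genes. The NF-kB motif was found in 3 of the 9 windows (TNFRSF14, the second window of CD83 and the second of CD86) and in 5.21% of all windows. The first windows of CD83 and CD86 held no NF-kB match. The 9 windows belong to 7 genes, too few to read either motif's count as a difference from its share. The windows with the half-site belong to CD58 and CD47, which rose, and to CD86, which was not called. CD80 and TNFRSF14 also rose and held no half-site. Of the genes that fell, CD48 and CD83 held none, and CD69 and CD70 had no window to search. With so few windows, the half-site cannot be tied to a direction. The NF-kB motif stands before TNFRSF14, which rose, CD83, which fell, and CD86, which was not called. A match is a description of letters in the window and says nothing of binding in these cells.

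CD58, the ligand of the T and natural killer cell receptor CD2, lies at chr1:116514535-116571039 on the minus strand of GRCh38. It read 1209, 1242 and 1344 normalized read counts in TP-064 replicates 1, 2 and 3 and 317, 297 and 262 in the DMSO replicates. The lowest TP-064 sample was far above the highest DMSO sample, and the gap between the groups was many times the spread within either. The mean was 1265 ± 70.1 against 292 ± 27.9 (SD, n = 3 each), a 4.33-fold difference and a log2 fold change of 2.11 with a standard error of 0.07 (limma adjusted p = 2.38e-12). Of all tested genes, 1.07% had a larger log2 fold change. CD2 itself was not among the listed genes.

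CD48, a glycolipid-anchored ligand of CD244 and CD2 and a relative of CD58, moved in the opposite direction. CD48 lies at chr1:160678746-160711851 on the minus strand. It read 4300, 4696 and 4363 normalized read counts with TP-064 and 5430, 5657 and 5280 with DMSO, so that every treated sample was lower than every control. The log2 fold change was -0.29 (SE 0.04, limma adjusted p = 1.68e-05), to 4453 ± 213 from 5455 ± 190 (SD, n = 3 each). When the test asked for a change beyond 1.2-fold, CD48 was not called (limma adjusted p = 0.475, the highest of its alternatives, which began at 6.72e-10). The antisense gene AL121985.1 overlaps 29.8% of its exon length. AL121985.1 read 42.8, 30.7 and 99.5 with TP-064 and 49.8, 34.8 and 21.6 with DMSO, with its highest value in TP-064 replicate 3, which holds more antisense reads. AL121985.1 was not called (limma adjusted p = 0.178), but was without TP-064 replicate 2 (log2 fold change 0.94, limma adjusted p = 0.0304, within a range of 0.0304 to 0.775). CD48 had a log2 fold change of -0.28 without TP-064 replicate 3.

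The other signalling lymphocyte activation (SLAM) receptors are encoded beside CD48 on chromosome 1 and are homotypic or heterotypic contact receptors of lymphocytes. Of 4 tested relatives, 3 fell and 1 rose. SLAMF6 fell to 580 ± 19.1 from 1055 ± 73.2, CD84 to 599 ± 25.2 from 1007 ± 21.0 and SLAMF1 to 38.2 ± 1.43 from 106 ± 6.43 normalized read counts (mean and SD, n = 3 each). Their log2 fold changes were -0.86, -0.75 and -1.45 (limma adjusted p of 7.7e-09, 1.05e-08 and 7.59e-07). LY9, further along the same cluster on the opposite strand, rose to 754 ± 90.2 from 395 ± 25.6, a log2 fold change of 0.93 (limma adjusted p = 1.39e-07). Among tested coding genes, CD48 thus lay between SLAMF1, which fell, at a distance of 31451 bases, and LY9, which rose, at 84223 bases. SLAMF7 lies between CD48 and LY9, and had too low a mean to be tested (11.4 normalized read counts with TP-064 and 6.26 with DMSO). CD244 and the adaptors SH2D1A and SH2D1B were not among the listed genes.

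The B7 ligand CD80 rose, and its relative CD86 was low in every sample. CD80 lies at chr3:119524293-119559602 on the minus strand. CD80 read 628, 644 and 610 normalized read counts with TP-064 and 436, 385 and 373 with DMSO. The treated samples lay close together and above all controls. The mean rose to 627 ± 16.8 from 398 ± 33.5 (SD, n = 3 each), a log2 fold change of 0.66 with a standard error of 0.07 (limma adjusted p = 9.1e-07). Of its exon length 24.9% is overlapped by TIMMDC1 on the other strand. TIMMDC1 had 2427 ± 49.9 and 2382 ± 30.4 normalized read counts and was not called (log2 fold change 0.03, limma adjusted p = 0.551), except with scaling to library size alone (0.15, limma adjusted p = 0.00197). How much of the CD80 signal came from that strand was not tested.

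CD86, the other ligand of CD28 and CTLA4, lies at chr3:122055366-122121139 on the plus strand. It read 37.6, 43.5 and 34.5 normalized read counts with TP-064 and 20.8, 43.7 and 32.4 with DMSO. The highest and the lowest value were both DMSO samples, so the groups overlapped entirely. The log2 fold change was 0.30 (SE 0.26, limma adjusted p = 0.328) with a 95% interval of -0.26 to 0.86, which runs from a fall to a rise. The estimate ran from 0.026 without DMSO replicate 1 to 0.55 without DMSO replicate 2. At this depth a change of CD86 was not detectable, which does not show that there was none.

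Other B7 and butyrophilin genes mostly fell. Of 7 tested, 6 were lower and 1 higher, against 33.3% lower and 31.9% higher over all tested genes. The tested butyrophilins lie close together on chromosome 6. ICOSLG, the ligand of the T cell receptor ICOS, fell to 646 ± 31.6 from 1905 ± 37.9 normalized read counts (mean and SD, n = 3 each), a log2 fold change of -1.56 (limma adjusted p = 9.28e-13). BTN3A2 and BTN3A1, butyrophilins sensed by gamma delta T cells, had log2 fold changes of -0.59 and -0.54, while BTN2A2 was at 0.24. CD274, which encodes PD-L1 and was named after its values were seen, was low, at 10.95 ± 3.55 against 22.1 ± 1.597. Its log2 fold change of -0.99 (limma adjusted p = 0.0133) lost the call without TP-064 replicate 1 (0.0520), without DMSO replicate 2 (0.0505) and in DESeq2 (0.0535), within a range of 0.00661 to 0.0566. Of the receptors of the CD28 family, PDCD1 was the 1 tested gene, at 33.6 ± 11.3 against 18.6 ± 1.23 and a log2 fold change of 0.77 (limma adjusted p = 0.0221). It was not called without TP-064 replicate 2 (0.140) or without DMSO replicate 3 (0.0602), within a range of 0.00890 to 0.140. CD28, CTLA4 and ICOS were not among the listed genes.

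Of the pair from the tumour necrosis factor (TNF) ligand and receptor families, the ligand CD70 fell and the receptor TNFRSF14 rose. CD70, the ligand of CD27, lies at chr19:6583183-6604103 on the minus strand. It read 1184, 1331 and 1112 normalized read counts with TP-064 and 1744, 1900 and 1854 with DMSO. The highest treated sample was well under the lowest control. The mean fell to 1209 ± 112 from 1833 ± 80.0 (SD, n = 3 each), a log2 fold change of -0.60 with a standard error of 0.06 (limma adjusted p = 4.43e-07). CD27 was not among the listed genes. The costimulatory ligands TNFSF4 and TNFSF9 were not called, at log2 fold changes of 0.16 and 0.06 (limma adjusted p of 0.398 and 0.616). TNFSF9 is also the nearest tested coding gene before CD70, at 47255 bases.

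TNFRSF14, the herpesvirus entry mediator, is a receptor for TNFSF14 and lymphotoxin alpha and a ligand for BTLA and CD160. It lies at chr1:2555639-2565382 on the plus strand. Its normalized read counts were 750, 768 and 721 with TP-064 and 538, 591 and 566 with DMSO, with no overlap. The mean rose to 746 ± 23.5 from 565 ± 26.4 (SD, n = 3 each), a log2 fold change of 0.40 with a standard error of 0.06 (limma adjusted p = 2.46e-05). Its antisense gene TNFRSF14-AS1 covers 13.4% of the exon length and read 14.9, 29.7 and 33.5 against 19.7, 18.9 and 22.7, a difference that was not called (limma adjusted p = 0.481).

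Of the genes listed with TNFRSF14, 2 could be tested, LTA and LTB, and both fell. Only LTA is among the binding partners of TNFRSF14 named above. LTA, lymphotoxin alpha, fell to 68.3 ± 12.2 from 127 ± 15.4 normalized read counts, and LTB, which forms the membrane lymphotoxin with LTA, to 133 ± 17.1 from 547 ± 73.2 (SD, n = 3 each). The log2 fold changes were -0.89 and -2.04 (limma adjusted p of 0.000147 and 4.3e-10). BTLA, with 1.298 ± 0.637 normalized read counts with TP-064 and 11.3 ± 5.10 with DMSO, had too low a mean to be tested. TNFSF14 and CD160 were not among the listed genes.

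CD40, the receptor through which T cells activate B cells, was the 1 other tested costimulatory TNF receptor and fell to 623 ± 50.1 from 931 ± 17.7 (log2 fold change -0.58, limma adjusted p = 8.38e-07). The TRAF adaptors that carry signals from such receptors were all called, 2 higher and 3 lower. TRAF5, TRAF2 and TRAF3, the last a restraint on noncanonical NF-kB signalling, had log2 fold changes of -1.33, -0.62 and -0.44. TRAF1 rose by 0.53 and TRAF6 by 0.24 (limma adjusted p from 2.94e-08 for TRAF3 to 5.4e-05 for TRAF6).

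Both markers of recent activation were lower with TP-064. CD83, an immunoglobulin family protein of activated B cells and mature dendritic cells, lies at chr6:14117256-14136918 on the plus strand. It read 996, 1067 and 1022 normalized read counts with TP-064 and 1706, 1785 and 1720 with DMSO. The samples of each group lay close together and the groups were far apart. The mean fell to 1028 ± 36.3 from 1737 ± 42.6 (SD, n = 3 each), a log2 fold change of -0.76 with a standard error of 0.05 (limma adjusted p = 1.43e-09), the largest fall among the 9 genes. In antigen-presenting cells CD83 protects CD86 and MHC class II from ubiquitin ligases of the MARCH family. One of these, MARCH8, rose to 2861 ± 54.7 from 1789 ± 39.3 (log2 fold change 0.68, limma adjusted p = 7.34e-10), and MARCH1 was not among the listed genes.

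CD69, the early activation lectin that keeps the sphingosine phosphate receptor S1PR1 off the cell surface, lies at chr12:9752486-9760901 on the minus strand. CD69 read 1204, 1459 and 1384 normalized read counts with TP-064 and 1958, 2057 and 2046 with DMSO. TP-064 replicate 1 was the lowest sample and no treated sample reached the controls. The mean fell to 1349 ± 131 from 2020 ± 54.3 (SD, n = 3 each), a log2 fold change of -0.59 with a standard error of 0.06 (limma adjusted p = 5.62e-07). Its nearest tested coding neighbours in the lectin gene cluster of chromosome 12 were lower too. CLECL1, at a distance of 19187 bases, was at a log2 fold change of -0.53 (limma adjusted p = 1.78e-08) and CLEC2B, at 92083 bases, at -0.47 (limma adjusted p = 2.54e-06).

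S1PR1 was not called, at 1408 ± 17.2 against 1492 ± 43.4 normalized read counts (log2 fold change -0.08, limma adjusted p = 0.105, and 0.04 with scaling to library size alone). KLF2, a transcription factor that activates S1PR1 in lymphocytes, fell to 292 ± 48.0 from 734 ± 13.8 (SD, n = 3 each), a log2 fold change of -1.34 (limma adjusted p = 1.3e-08). Among other receptors of the same lipid, S1PR4 rose by 0.65 on the log2 scale, to 12240 ± 932 from 7774 ± 372 (limma adjusted p = 2.24e-08). S1PR2, which confines B cells to the germinal centre, fell to 97.2 ± 2.29 from 128 ± 8.83 (log2 fold change -0.39, limma adjusted p = 0.00998), and was not called with scaling to library size alone (0.0648, within a range of 0.00694 to 0.325). GNA13, the G protein subunit through which S1PR2 signals, fell by 0.33 (limma adjusted p = 1.61e-06).

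CD47, the ligand of the macrophage receptor SIRPA, lies at chr3:108043094-108091862 on the minus strand and had the most reads of the 9 genes. It read 8124, 8470 and 8764 normalized read counts with TP-064 and 7107, 7296 and 6970 with DMSO. The groups did not overlap, and the difference was small, like that of CD48. The mean rose to 8453 ± 321 from 7124 ± 164 (SD, n = 3 each), a log2 fold change of 0.25 with a standard error of 0.04 (limma adjusted p = 2.99e-05). When the test asked for a change beyond 1.2-fold, CD47 was not called (limma adjusted p = 1.0, the highest of its alternatives, which began at 1.64e-09). QPCTL, the enzyme that modifies CD47 for binding by SIRPA, was at 502 ± 38.5 against 495 ± 18.6 and was not called (log2 fold change 0.02, limma adjusted p = 0.837). CALR, calreticulin, whose display on the surface promotes uptake, fell to 21101 ± 523 from 31057 ± 1080 (log2 fold change -0.56, limma adjusted p = 3.61e-09). LRP1, a receptor for calreticulin, rose to 293 ± 60.6 from 163 ± 17.1 (log2 fold change 0.82, limma adjusted p = 8.54e-05). SIRPA, SIRPB1 and SIRPG were not among the listed genes.

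Of 10 other tested surface markers of B cell activation, 3 rose, 5 fell and 2 were not called. CD72, an inhibitory coreceptor, rose to 5691 ± 140 from 2623 ± 134 normalized read counts (mean and SD, n = 3 each, log2 fold change 1.12, limma adjusted p = 4.86e-12). CD38 rose by 0.66 and the adhesion molecule ICAM1 by 0.40 on the log2 scale (limma adjusted p of 1.12e-10 and 2.64e-07). The death receptor FAS fell by 1.35, the transferrin receptor TFRC by 0.45 and SLC3A2, a chain of amino acid transporters, by 0.43 (limma adjusted p of 2.53e-07, 4.68e-08 and 7.46e-08). Over all lists, 76 genes other than the 9 were fixed, of which 47 were listed and 41 tested. Of these 11 were called higher, 24 lower and 6 neither, with a median log2 fold change of -0.38 beside 0.01 over all tested genes. The shares over all tested genes were 65.1% called, 31.9% higher and 33.3% lower. When the test asked for a change beyond 1.2-fold, 8 of the 41 were called higher and 18 lower. Among the genes named, BTN2A2 and TRAF6 (adjusted p = 1.0 each), PDCD1 (0.110), GNA13 (0.125), S1PR2 (0.325) and CD274 (0.0566) were then not called in limma.

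**Figure D2:**
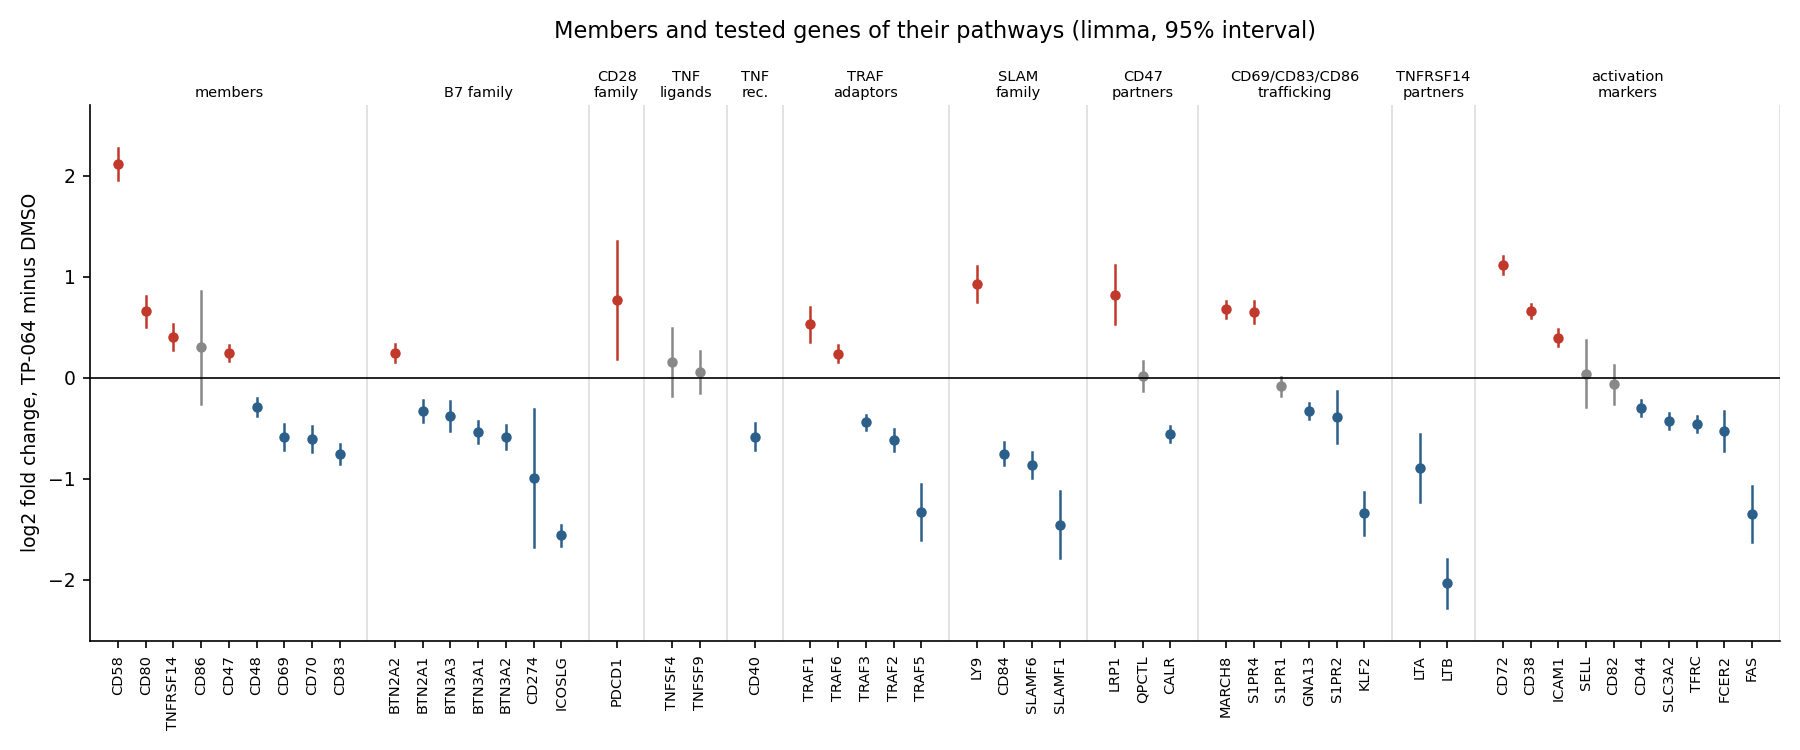
Log2 fold changes, TP-064 minus DMSO, on the log2(normalized read count + 1) scale with 95% intervals from limma, for the 9 genes at the left and the 41 tested genes of their pathways; red marks genes called higher, blue lower and grey not called. CD58, at 2.11, is the highest of all, and LTB, at -2.04, the lowest.

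Levels of different genes were compared per kilobase of exon, with the exons of all annotated transcripts merged. The order depends on that length, which was 6219 bases for TNFRSF14 and 1783 for CD58. Before division by length, TNFRSF14 had the higher mean in DMSO, 565 against 292. Which annotated transcripts these cells use was not tested. In DMSO the order of normalized read counts per kilobase was CD48 at 1666, CD70 at 1196, CD47 at 866, CD69 at 713, CD83 at 691, CD58 at 164, CD80 at 124, TNFRSF14 at 90.8 and CD86 at 9.41. Only CD69 and CD83 had overlapping samples among neighbours in that order. With TP-064 the order was CD48 at 1360, CD47 at 1028, CD70 at 789, CD58 at 709, CD69 at 476, CD83 at 409, CD80 at 196, TNFRSF14 at 120 and CD86 at 11.2. CD58 thus passed CD69 and CD83, and its samples overlapped those of CD70 alone among its neighbours in the order. CD80 and TNFRSF14 rose without a change of rank, and CD86 was lowest in both groups.

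**Figure D3:**
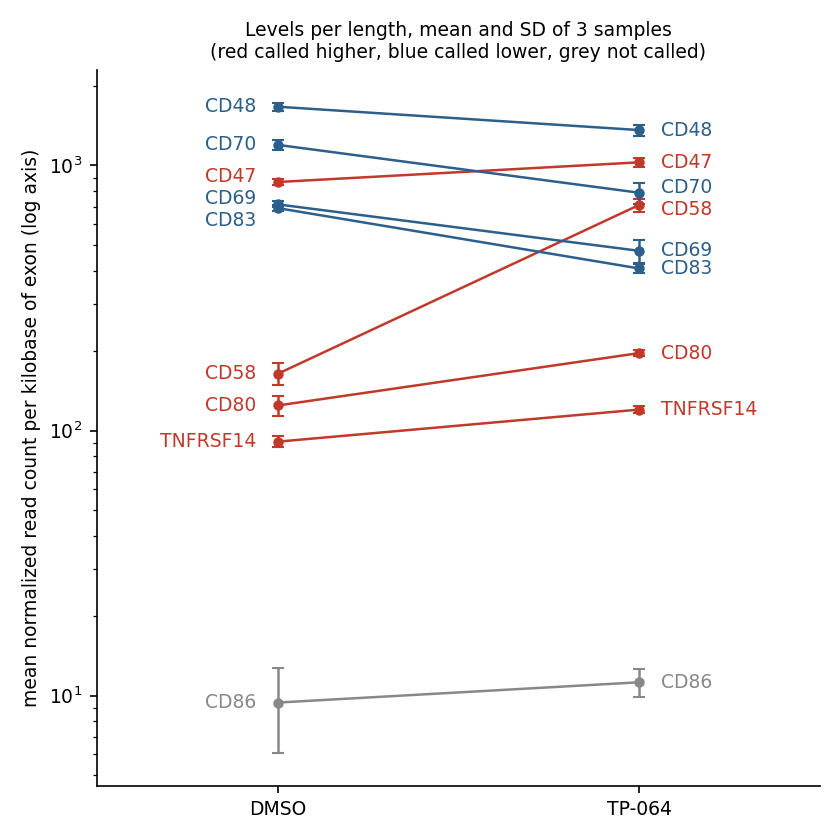
Mean normalized read count per kilobase of merged exon (log axis) for the 9 genes in DMSO and TP-064, with the SD of 3 samples as bars; red lines are genes called higher, blue lower and grey not called. CD58 climbs from 164 to 709, across CD69 and CD83, which fall to 476 and 409, while CD86, at 9.41 and 11.2, is at the bottom.

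Gene position was compared through the nearest tested coding gene on each side. Of 18 such neighbours 4 were higher, 8 lower and 6 not called. Beside the 8 called genes, 6 of 16 neighbours were called in the same direction, 5 in the other and 5 neither. Over all tested genes 65.1% were called, 31.9% higher and 33.3% lower, so these few counts do not tie the changes to position. Beside CD58, IGSF3 at 3360 bases was at 35.3 ± 3.17 against 29.98 ± 3.49 normalized read counts and was not called (limma adjusted p = 0.368). Beside CD80, ADPRH at 19666 bases rose by 0.33 (limma adjusted p = 0.000553). Beside CD47, IFT57 at 68950 bases fell by 0.80 (limma adjusted p = 6.91e-11) and BBX was not called. CD83 and TNFRSF14 each lay between a neighbour that fell and one that rose, RNF182 (-0.65) and JARID2 (0.22) for CD83 and PANK4 (-0.51) and PRXL2B (0.24) for TNFRSF14, as log2 fold changes. RNF182 lay 136954 bases from CD83 and JARID2 1109378 bases, so the nearest tested gene can be far away. PANK4 and PRXL2B lay 29011 and 21109 bases from TNFRSF14. ADPRH, JARID2 and PRXL2B were not called in limma when the test asked for a change beyond 1.2-fold (adjusted p of 0.361, 1.0 and 1.0). BBX beside CD47 and GPR108 beside CD70 were called higher, at 0.15 and 0.18, when only library size was scaled. Beside CD86, CASR was not called, and SLC15A2 had a log2 fold change of -0.27 (limma adjusted p = 0.0457). SLC15A2 read 276 in DMSO replicate 1 and 208 and 210 in the other DMSO samples, against 186 to 195 with TP-064. Its call was lost without DMSO replicate 1 (-0.14, limma adjusted p = 0.265), without any TP-064 replicate (0.0566 to 0.107), with TMM or library size scaling and in DESeq2, within a range of 0.0275 to 0.798.

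Under scaling to library size alone, the median log2 fold change of all genes was 0.13 in place of 0.01. The share of calls that were higher was then 61.5% in place of 48.9%. The 4 genes called higher and the 4 called lower kept their direction and call under that scaling and under TMM scaling. CD48 was at -0.17 with scaling to library size alone.

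**Figure D4:**
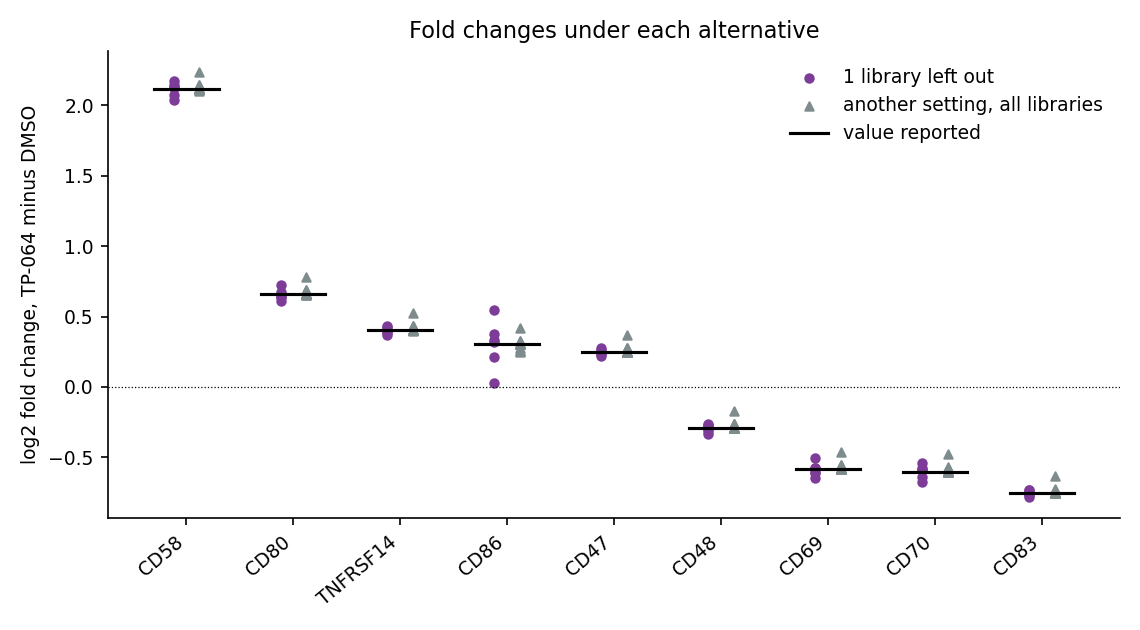
Log2 fold changes, TP-064 minus DMSO, of the 9 genes as reported (black bars), with each library left out in turn (purple circles) and under other settings with all libraries (grey triangles). CD58 stays between 2.04 and 2.24, every other called gene stays on its side of 0, and CD86 spreads most, from 0.026 to 0.55.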

How the data were processed

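Polyadenylated RNA of 6 Toledo samples was made into stranded libraries, per the labels' protocols. The tools named are TopHat2 2.0.10, HTSeq 0.6.0 and DESeq 1.18.0, on hg38, per the submitters' processing notes. The annotation release and the strand setting of the counting were not given in the sources used here. The authors deposited a normalized signal per gene, which behaves as reads over 1 size factor for each library. Divided by that step, 100% of values came out whole (tolerance 0.001), which gave back the reads. For the second replicate of each group the step is so near 1 that the values alone do not settle it, a limit that touches depths and count tests.

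Symbols, exons and coordinates come from GENCODE 29 (18214 of 18278 genes matched by identifier without version). The test was limma 3.58.1 with trend (R 4.3.3) on log2(normalized read count + 1), for genes with a mean of at least 10, with 4 residual degrees of freedom. The pseudocount understates changes of low genes. The code was tested on simulated data. Chi-squares between replicates, 3.06 to 7.63 per degree of freedom, lay above sampling noise, and each library counts as its own sample. Alternatives on recovered reads used edgeR 4.0.16, DESeq2 1.42.0 and limma-voom. With the same scaling, edgeR's quasi-likelihood test called 5164 genes higher and 5329 lower.

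The 9 genes and the pathway lists were chosen with earlier results of these data known. Genes named from each list are up to 3 called genes with the smallest p in each direction, with binding partners of the 9 genes nearest coding neighbours (1 is not reported here) and, for CD58 and CD83, the 3 nearest profiles.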

Additional observations from a re-analysis of the deposited data

How the results depend on the processing

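The counts of 4 genes called higher and 4 lower were the same under other pseudocounts, filters, scalings and count tests, at an adjusted p of 0.01 and with any 1 library left out. Against a null of a 1.2-fold change CD48 (-0.29) and CD47 (0.25) were not called, and over all genes 2687 were called higher and 2905 lower in place of 5112 and 5337. Leaving out genes that overlap an opposite-strand exon removes CD80, TNFRSF14 and CD48, so 2 of the 9 were then called higher, at a median of -0.17. That median, near the crossing of signs, was -0.024 with a filter at 1 CPM, which removes CD86, 0.37 with library size scaling, and 0.026 to 0.27 with 1 library left out. With the replicate number as a block, 4 and 4 of the 9 genes and 5141 and 5350 of all genes were called. Deviations of same-numbered samples correlated at -0.0859, 0.0659 and -0.0793, inside the range of -0.115 to 0.146 for differently numbered samples. These values gave no sign of an effect shared by replicate number. They cannot show whether same-numbered cultures were set up together. Signs turned for genes that were not called, S1PR1 (0.040, library size scaling), CASR (-0.031 to 0.103 with 1 library left out, lowest without TP-064 replicate 1) and QPCTL (-0.044 to 0.057, with values under 0 without TP-064 replicate 3 and without DMSO replicate 1).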

Other observations

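Over the 6 samples, the genes with the log2 profile nearest to that of CD58, among 11098 with a mean of at least 100, were SLFN5, ZNF106 and KLHL30, at Euclidean distances of 0.204, 0.217 and 0.228. SLFN5, a Schlafen family gene, stood at 368 ± 44.1 normalized read counts with TP-064 and 87.3 ± 9.46 with DMSO (SD, n = 3 each), and ZNF106, a zinc finger gene, at 43672 ± 155 and 9793 ± 95.2. The genes nearest to CD83 were IARS, a cytosolic aminoacyl-tRNA synthetase, HNRNPF, an RNA-binding protein of splicing, and MRPL17, a mitochondrial ribosomal protein, at distances of 0.0248, 0.0303 and 0.0334. IARS stood at 13943 ± 364 with TP-064 and 23740 ± 533 with DMSO. With 2 groups, such a distance mostly reflects the size of the difference between them, and many genes of like fold change lie almost as near.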
